A study of Mus musculus with 18 samples.

Results

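The genes described here encode the contractile apparatus of skeletal muscle and the calcium-handling and energy proteins that serve it. They were taken by symbol from a list of 48 muscle genes, of which 46 were in the table of 14521 named genes, while Myl2 and Myod1 were not analysed here. The 46 genes were ordered by role into 13 genes of fast fibres, 5 of slow fibres and 4 of regenerating fibres. A further 13 sarcomere genes were not assigned to a fibre type and are called shared sarcomere genes. The others were 5 genes of the calcium release apparatus and membrane and 6 of energy metabolism. Mouse skin lies on a thin sheet of striated muscle, the panniculus carnosus, so a piece of full-thickness skin carries muscle RNA. In each fibre myosin motors pull on actin filaments when calcium, released from internal stores, binds troponin C on the thin filament. Fast and slow fibres use different genes for myosin and for the troponins, and a fibre that is being rebuilt after injury passes through embryonic and neonatal myosins under the control of factors such as myogenin before the adult set returns.

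RNA was sequenced from 6 female SKH-1E hairless mice, littermates of an outbred strain that had all received chronic ultraviolet light from a solar simulator. From each animal came a piece of irradiated skin free of lesions (CHR), 1 papilloma (PAP) and 1 squamous cell carcinoma of the skin (SCC), which makes 18 libraries with n = 6 in each group, and no unirradiated skin was analysed here. The strain develops skin tumours readily under ultraviolet light, tissue was taken after irradiation had ended, and the sample labels give no age. RNA was taken from whole pieces, and in such bulk RNA fewer cells of a type and less RNA per cell cannot be told apart. The paper estimates that the lesions, checked by histology, were mostly tumour cells. How deep each piece was cut, and so how much of the muscle sheet it held, is not given in the sources used here. A difference in depth between tissues cannot be told apart from the tissue itself. The libraries held 15.4 to 21.0 M recovered reads. In what follows a normalised read count is the number of reads recovered from the deposited value, divided by the size factor of its library. Log2 changes are on the log2(value + 1) scale of the deposited, transformed values, which compresses low counts. This scale understates the change of weakly expressed genes and of well-expressed genes that fall to a few reads. Such log2 changes are therefore not fold changes in reads. A gene was called at a limma adjusted p under 0.05, adjusted over all 14521 genes.

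Upstream sequence is shown for genes that ended at different levels in carcinoma, namely the fast heavy chain Myh4, the fast-fibre calcium buffer Pvalb, the slow and cardiac troponin C Tnnc1, and the embryonic heavy chain Myh3. Each is the 250 bases before the RefSeq start on GRCm38.p6, 5′ to 3′ on the gene's strand, and lies at chr11:67237562-67237811 (+) for Myh4, chr15:78206401-78206650 (-) for Pvalb, chr14:31208062-31208311 (+) for Tnnc1 and chr11:67078050-67078299 (+) for Myh3. Capitals mark the E-box CANNTG, the letters read by myogenin and related factors, and matches to the MEF2 and CArG (serum response factor) motifs of muscle promoters, sought on both strands.
Myh4: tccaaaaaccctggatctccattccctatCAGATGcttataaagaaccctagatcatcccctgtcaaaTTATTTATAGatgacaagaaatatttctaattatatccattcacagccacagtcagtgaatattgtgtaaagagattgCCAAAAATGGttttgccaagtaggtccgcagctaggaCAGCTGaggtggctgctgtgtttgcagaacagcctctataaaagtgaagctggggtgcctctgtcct
Pvalb: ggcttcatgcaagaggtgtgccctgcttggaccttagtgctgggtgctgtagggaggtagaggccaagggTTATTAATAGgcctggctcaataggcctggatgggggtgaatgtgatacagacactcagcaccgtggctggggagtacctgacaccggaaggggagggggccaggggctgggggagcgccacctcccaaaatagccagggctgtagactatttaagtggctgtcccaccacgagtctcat
Tnnc1: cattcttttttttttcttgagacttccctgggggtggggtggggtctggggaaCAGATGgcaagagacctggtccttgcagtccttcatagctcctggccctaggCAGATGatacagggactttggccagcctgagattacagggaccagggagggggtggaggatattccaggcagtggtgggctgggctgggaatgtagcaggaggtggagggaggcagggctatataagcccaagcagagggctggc
Myh3: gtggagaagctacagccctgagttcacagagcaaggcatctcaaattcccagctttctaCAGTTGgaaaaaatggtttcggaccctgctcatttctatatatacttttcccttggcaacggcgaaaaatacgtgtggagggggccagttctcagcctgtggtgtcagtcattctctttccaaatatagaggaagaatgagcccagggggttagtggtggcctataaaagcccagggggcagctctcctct
Myh4 held E-boxes starting 221 and 67 bases before the start, a MEF2 match at 182 and a CArG match at 104. Pvalb held a MEF2 match at 180, Tnnc1 E-boxes at 197 and 145, and Myh3 an E-box at 191. RefSeq sequence was at hand for 35 of the 46 genes. An E-box was found before 29 of them (82.9%), compared with 66.0% of 27025 promoters of all genes, a MEF2 match before 7, compared with 3.01% of all, and a CArG match before 5 (14.3%), compared with 1.4%. The search was for letters only, and a match is not a binding site.

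The 46 muscle genes took 2.68% to 3.85% of all reads in irradiated skin, with a median of 3.03% (n = 6). In PAP they took 0.00368% to 0.215%, with a median of 0.00792%, and in SCC 0.00543% to 1.3%, with a median of 0.768%. Every skin library lay above every lesion. Libraries that stood apart were the papilloma of mouse 2, which held the highest share of the papillomas (0.215%, next 0.0106%), and the carcinoma of mouse 10, which at 0.00543% lay within the range of the papillomas while the other 5 carcinomas held 0.567% to 1.3%.

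**Figure D1:**
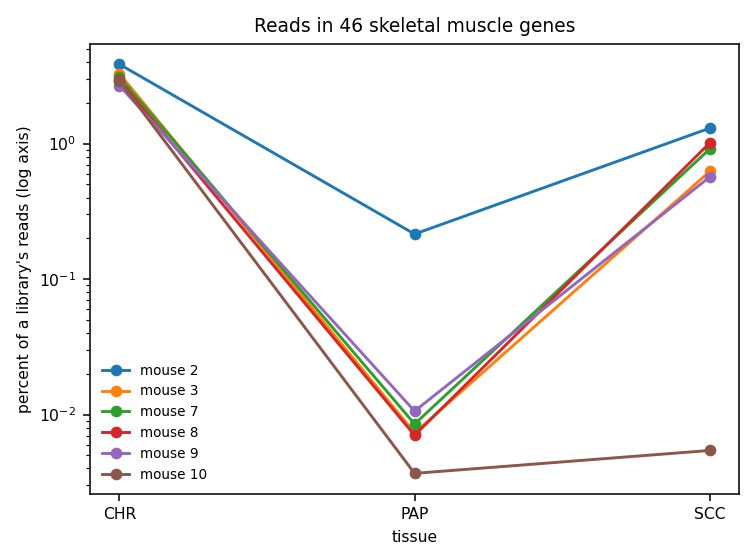
Share of a library's reads that fell in the 46 skeletal muscle genes (percent, log axis) in CHR, PAP and SCC, with a line for each of the 6 mice. Skin lay at 2.68% to 3.85%, 5 of 6 papillomas at or below 0.0106%, and 5 of 6 carcinomas at 0.567% to 1.3%, with mouse 2 high in PAP and mouse 10 low in SCC.

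Irradiated skin had the gene set of fast muscle. Per kb of exon, the highest level in CHR was that of Acta1, the actin of skeletal muscle thin filaments (GRCm38 chromosome 8, 123891769 to 123894751), with a median of 16490 normalised reads per kb and a range of 11420 to 25370. Car3, a carbonic anhydrase abundant in muscle and in fat, followed at a median of 6121 per kb, Myh4 at 5713, and the fast troponins Tnnt3 and Tnnc2 at 5510 and 5011. The ranges of these last 4 genes overlapped, and the order among them is not resolved. The whole ladder ran down to Myh7, the heavy chain of slow fibres and heart (chromosome 14, 54970684 to 54994626), at a median of 0.1034 per kb. Slow genes other than Mybpc1, a myosin-binding protein found in fast fibres too, were low in skin. Tnni1, Tnnc1 and Myh7 had medians of 10.6, 1.521 and 0.8908 normalised reads, compared with 4451 for the fast Tnni2, 4009 for the fast Tnnc2 and 34370 for Myh4.

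The skin libraries did not hold the same mix of fast heavy chains. Per kb, Myh4 made up 72.2% to 85.9% of the reads of 6 heavy chain genes in mice 2, 8, 9 and 10, but 22.5% in mouse 3 and 12.1% in mouse 7. In mice 3 and 7, Myh1, the heavy chain of intermediate speed (chromosome 11, 67200052 to 67224575), made up 61.0% and 67.9%, compared with 9.74% to 18.5% in the other 4 mice. Of all 76-base stretches, 15.1% of those of Myh1, 13.6% of Myh2, 9.09% of Myh4 and 5.69% of Myh8 recur in another of these genes. Counts may therefore have been split among them, which matters most for Myh8, whose reads were few beside those of the fast chains. Of Myh3 0.531% and of Myh7 0.0% recur.

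In papilloma the muscle genes were far below skin. In PAP vs CHR, 42 of 46 genes were called, all 42 lower in PAP, where 51.5% of all 14521 genes were called, 28.7% lower and 22.8% higher. The median log2 change of the 46 genes was -4.75, compared with 0.001 for all genes, and 41 of them were lower in 6 of 6 mice. On log2(normalised reads + 1), which compresses low counts less, that median was -7.55, compared with -0.0074 for all genes. In 41 genes the groups did not overlap, which held downwards for 19.3% of all genes and upwards for 14.4%. The 4 genes not called were Myh7, Tnni1, Tnnc1 and Actc1, all of which had medians under 11 reads in skin. Over all other settings and without each mouse in turn, 38 to 42 genes were called, all lower, and without mouse 2 it was 40.

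The shared sarcomere genes were called lower 13 of 13 times. Ttn, which encodes the giant elastic spring of the sarcomere (chromosome 2, 76703980 to 76982547), had 260400 to 392000 normalised reads in CHR with a median of 337800. In PAP it had 72.36 to 20850 with a median of 390.0. The groups did not overlap, and the top papilloma was that of mouse 2, far above the rest. Its log2 change was -8.75 ± 1.32 (SE, limma adjusted p 3.11e-05). Neb, whose product runs along the actin filament, went from 27120 to 38700 reads in CHR (median 31600) to 32.51 to 2080 in PAP (median 201.7). Acta1 went from 17530 to 38970 (median 25330) to 4.195 to 1848 (median 26.08). Again mouse 2 gave the highest papilloma for both genes and no papilloma reached the range of skin. The log2 changes were -6.7 ± 0.84 (SE) for Neb and -7.65 ± 0.99 for Acta1, with limma adjusted p of 4.78e-06 and 6.64e-06. Des, the intermediate filament of muscle that smooth muscle expresses as well, had 4008 to 5058 reads in CHR (median 4128) and 16.12 to 440.5 in PAP (median 32.42), without overlap. It fell by 5.12 on the log2 scale (SE 0.73, limma adjusted p 1.68e-05).

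All 13 fast-fibre genes were called lower, with a median log2 change of -5.92. Myh4 (chromosome 11, 67238029 to 67260446) had 3341 to 54070 reads in CHR with a median of 34370. In PAP it had 2.097 to 1433 with a median of 13.56. The lowest skin library, that of mouse 7, still exceeded the highest papilloma, that of mouse 2. The log2 change was -7.46 ± 1.06 (SE, limma adjusted p 1.79e-05). Myh1 and Myh2, the other adult fast heavy chains, changed by -6.89 ± 0.95 and -5.92 ± 0.76, and were at 0.0793% and 0.0764% of their median in skin, but in limma-voom without the mouse as block the adjusted p were 0.0735 and 0.0605. Of the fast troponins, Tnnt3, which anchors the complex to tropomyosin, had 8339 to 13700 reads in CHR (median 8722) and 2.097 to 611.1 in PAP (median 10.3). Tnnc2, the calcium sensor, had 3638 to 6820 (median 4009) and 0.0 to 311.5 (median 4.183). Tnni2, the inhibitory subunit, had 4354 to 6926 (median 4451) and 47.37 to 449.8 (median 101.4). None of these ranges met, and Tnni2 kept a larger share of its skin level, 2.28%, than Tnnt3 (0.118%) or Tnnc2 (0.104%). Their log2 changes were -6.68 ± 0.78, -5.95 ± 0.69 and -4.71 ± 0.53 (SE), with limma adjusted p of 2.22e-06, 2.14e-06 and 1.66e-06. Atp2a1, the calcium pump of fast fibres, fell from a median of 11690 (8992 to 14610) to 10.64 (4.195 to 669.6), and Pvalb (chromosome 15, 78191114 to 78206400) from 1714 (1051 to 4151) to 0.8783 (0.0 to 159.6). Both were without overlap, with log2 changes of -6.87 ± 0.77 and -5.0 ± 0.51 and limma adjusted p of 1.54e-06 and 6.26e-07.

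Of the slow and regenerating genes, Mybpc1 and Myh8 had medians of 4824 and 713.9 reads in skin, and the others had medians of at most 43.25 reads there. Some reads of Myh8 may be those of other heavy chains that share stretches with it. Of the 5 slow genes, 2 were called lower. Mybpc1 fell by 6.05 on the log2 scale, from a median of 4824 reads (2733 to 6255) to 2.635 (1.049 to 303.8). Tnnt1, the slow troponin T (chromosome 7, 4504570 to 4516382), had 20.82 to 72.94 reads in CHR (median 24.5) and 0.8613 to 25.07 in PAP (median 4.045). Its groups overlapped, and its log2 change of -0.68 ± 0.26 (SE, limma adjusted p 0.0396) was not called with the mouse as block (adjusted p 0.0544), nor without mouse 7, 8 or 10 (0.0509 to 0.137). Tnni1, Tnnc1 and Myh7 had log2 changes of -0.21 ± 0.33, 0.21 ± 0.24 and 0.07 ± 0.26 (SE), with limma adjusted p of 0.627, 0.494 and 0.833, and from these few reads a fall was not detectable. Of the 4 regenerating genes 3 were called. Myh8, the neonatal heavy chain, had 540.9 to 827.2 reads in CHR and 0.0 to 31.4 in PAP, where 4 libraries were at 0, and its log2 change was -3.96 ± 0.41 (limma adjusted p 6.87e-07). Myh3 (chromosome 11, 67078300 to 67102291) had 25.18 to 55.76 reads in CHR (median 43.25) and 0.0 to 1.791 in PAP (median 1.046). Myog, the gene of the differentiation factor myogenin (chromosome 1, 134289989 to 134292548), had 6.84 to 20.91 reads in CHR (median 14.98) and 0 in all 6 papillomas, so that its fitted change depends on the transformation and is no bound. The groups of both genes were apart in all 6 mice, yet the adjusted p were close to the threshold, 0.0381 for Myh3 (log2 change -1.24 ± 0.48) and 0.0357 for Myog (-0.83 ± 0.32). The call of Myh3 was lost without mouse 2, 3, 7, 8 or 9 (adjusted p 0.0522 to 0.0943), and that of Myog without mouse 2, 3, 8 or 9 (0.0576 to 0.0918). Actc1, the cardiac actin that rebuilding fibres also express (chromosome 2, 114047282 to 114053548), had a median of 5.215 reads in CHR (1.92 to 12.49) and 3.14 in PAP (1.198 to 7.638), with overlap and a limma adjusted p of 0.645.

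Calcium release and metabolism followed the fast genes. All 5 genes of calcium release and membrane and all 6 metabolic genes were called lower. Ryr1, the channel that releases calcium from the sarcoplasmic reticulum, had 4648 to 7426 reads in CHR (median 5143) and 6.292 to 317.4 in PAP (median 82.76). It did not overlap and fell by 5.19 on the log2 scale (SE 0.53, limma adjusted p 6.25e-07). Ckm, the creatine kinase of muscle, had 8857 to 18850 reads (median 12270) and 2.584 to 778.3 (median 7.841). Car3 had 8767 to 20450 (median 17540) and 1.049 to 572.9 (median 5.27). Mb, the oxygen store myoglobin, had 625.1 to 2799 (median 1552) and 12.06 to 139.2 (median 26.77). No papilloma reached the skin range of any of these genes, and mouse 2 was the highest papilloma in each. The log2 changes were -7.03 ± 0.83, -7.58 ± 0.85 and -3.95 ± 0.45 (SE), with limma adjusted p of 2.65e-06, 1.48e-06 and 1.81e-06. Srl, which encodes the calcium-binding sarcalumenin, kept the highest share of skin in the median papilloma among the 42 genes called, 14.1%, apart from Tnnt1 at 16.5% (Srl was singled out after its values were seen).

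**Figure D2:**
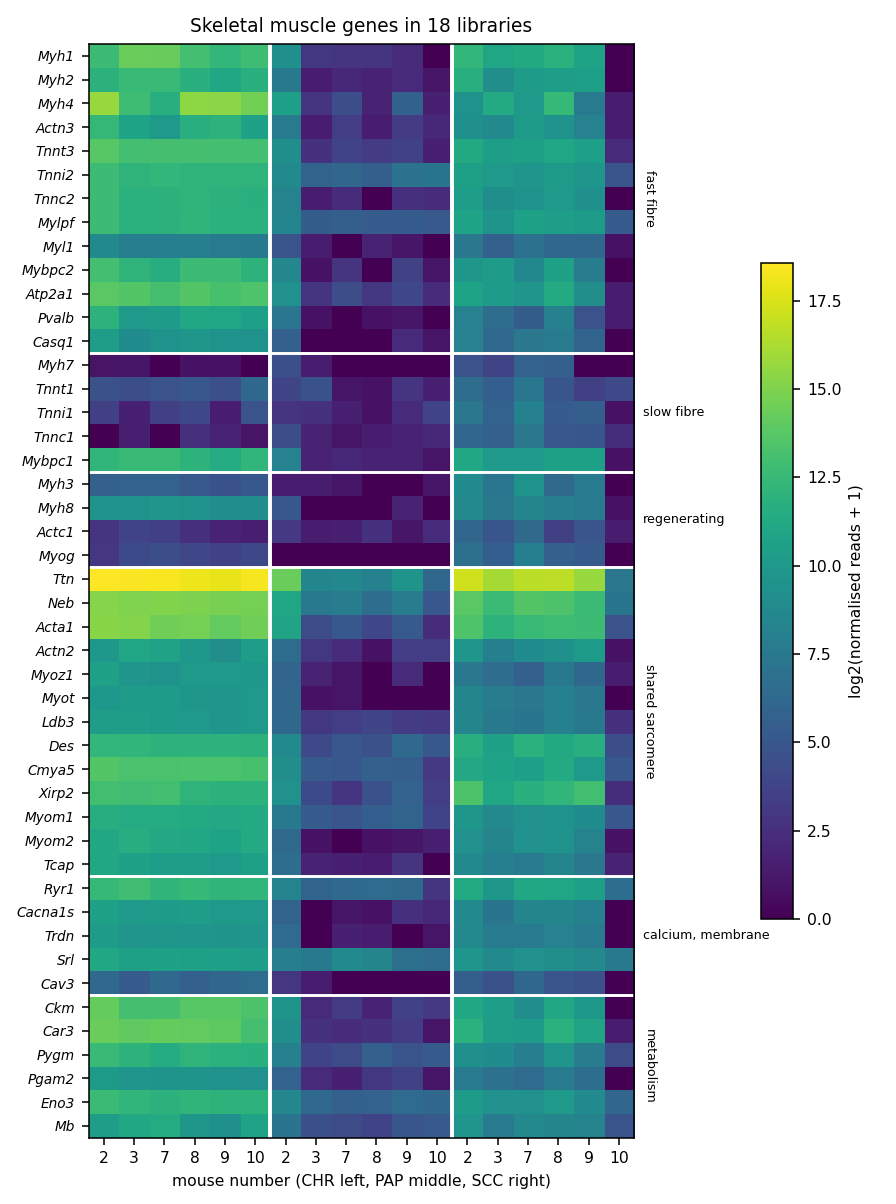
Log2(normalised reads + 1) of the 46 genes (rows, grouped by role) in the 18 libraries (columns, labelled by mouse number). The CHR block is high except in Tnnt1, Tnni1, Tnnc1, Myh7, Myh3, Actc1 and Myog, the PAP block is lower and highest in mouse 2, and the SCC block is intermediate for most genes in 5 mice, with mouse 10 near the level of the papillomas.

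The fall was uneven by mouse, and the papilloma of mouse 2, which held the most muscle reads, had the narrowest spread among genes. Over the 38 genes with at least 100 normalised reads in every skin library, the median papilloma level as a percentage of the same mouse's skin was 0.102%, 0.184%, 0.0922%, 0.454% and 0.0985% in mice 3, 7, 8, 9 and 10. It was 4.79% in mouse 2, where the 38 genes lay between 2.65% (Myh4) and 11.7% (Srl). The quartiles of the 46 log2 ratios of papilloma to skin were -4.46 and -3.52 in mouse 2 and spread more widely in the others, for example -10.03 and -6.27 in mouse 3, where most genes had a few reads. With a few reads in papilloma the ratio largely follows the gene's level in skin. Unevenness among such genes cannot be read from it. Of the 46 genes, those with few reads in skin cannot fall far.

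Markers of other cell types moved in the same libraries. In PAP vs CHR, 28.7% of all genes were called lower and 22.8% higher. Called lower were 15 of 16 adipocyte genes, 9 of 12 dermal fibroblast genes and 8 of 8 macrophage genes. So were 4 of 7 nerve genes and 6 of 11 smooth muscle and myofibroblast genes, while 1 nerve gene and 1 smooth muscle gene were called higher. Of 12 keratinocyte genes, 9 were called higher and 1 lower. As a share of reads, adipocyte genes took 0.299% to 0.456% in CHR and 0.0357% to 0.108% in PAP, fibroblast genes 0.821% to 1.88% and 0.0454% to 0.914%, macrophage genes 0.239% to 0.401% and 0.00779% to 0.0516%, and smooth muscle genes 0.062% to 0.0833% and 0.0216% to 0.0643%. Keratinocyte genes took 2.56% to 4.83% in CHR and 4.34% to 6.68% in PAP. Their part in the fall of the muscle genes was not tested. The papilloma of mouse 2, highest in muscle, held 0.362% of reads in fibroblast genes, near the PAP median of 0.357%, and the lowest keratinocyte share of the papillomas, 4.34%. It held 0.0489% in macrophage genes (PAP median 0.0274%) and 0.0405% in smooth muscle genes (0.0354%). Its adipocyte share was 0.056% (PAP median 0.0525%) and its nerve share 0.0162% (0.014%). The 4 heart genes in the table summed to 55.57 to 88.47 reads per skin library (Nppa and Myh6 were not analysed here).

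Further muscle genes, 71 of a list of 80, were read in the same way. In PAP vs CHR, 62 were called lower and 1 higher, where 28.7% of all genes were called lower and 22.8% higher. Their median log2 change was -1.81. Among the called genes with large changes were Klhl41, Mstn, Ckmt2 and Hrc, with log2 changes of -4.16, -3.78, -3.4 and -3.35, each lower in 6 of 6 mice. Klhl41 serves sarcomere maintenance, Mstn is the growth inhibitor myostatin, Ckmt2 the mitochondrial creatine kinase of muscle, and Hrc a calcium-binding protein of the reticulum. Myf6, a muscle regulatory factor of mature fibres, had 58.45 to 81.18 reads in CHR and 0 in 5 of 6 papillomas, with a log2 change of -1.68 ± 0.2 (SE, limma adjusted p 2e-06). The gene called higher was Tnnt2, the troponin T of heart and embryonic muscle, with 45.15 to 79.0 reads in CHR, 97.06 to 770.6 in PAP and 209.6 to 592.5 in SCC. Pax7 and Myf5, the genes of muscle stem cells, were not analysed here.

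In 5 of 6 mice the carcinoma held most muscle transcripts at levels between papilloma and skin. In SCC vs PAP, 42 of 46 genes were called, all higher in SCC, where 5.58% of all genes were called, 4.99% higher and 0.592% lower. The median log2 change was 2.27, compared with -0.018 for all genes, and the unadjusted p was under 0.05 for 46 of 46 genes. In 17 genes SCC was higher in 6 of 6 mice, and in 0 genes were the groups apart, which held upwards for 0.269% of all genes and downwards for 0.158%. The genes not called were Myh4, Pvalb, Srl and Myh7, with limma adjusted p of 0.136, 0.122, 0.0621 and 0.165. Pvalb and Srl were called once the mouse was a block (adjusted p 0.0192 and 0.0147), which made 44.

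The number called, unlike the size of the change, moved with the libraries used. In limma it dropped to 0 when mouse 3, mouse 7 or mouse 8 was left out, although the unadjusted p stayed under 0.05 for 43, 44 and 43 genes and the median log2 change of the 46 genes was 2.15, 2.05 and 1.99. In these fits limma called 0 genes over the whole table too. Leaving out mouse 9 gave 9 genes, mouse 2 gave 33 and mouse 10 gave 44. Fitted on the libraries of the 2 lesions alone, limma called 0 genes, with the unadjusted p under 0.05 for 45. In limma-voom on recovered reads the count was 0, with the unadjusted p under 0.05 for 27, and 44 once the mouse was a block. The direction was upwards for the median of the 46 genes in each of these fits.

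Ttn had 166.5 to 154900 reads in SCC with a median of 85560. The carcinoma of mouse 10 was within the papilloma range and the other 5 were above every papilloma. The log2 change from PAP was 5.47 ± 1.32 (SE, limma adjusted p 0.0302), higher in 6 of 6 mice. Neb had 145.0 to 14510 reads (median 8700) and Acta1 25.96 to 11230 (median 6347). Both were higher than in PAP in 6 of 6 mice, with log2 changes of 4.07 ± 0.84 and 4.61 ± 0.99 and limma adjusted p of 0.0231 and 0.0245. Xirp2, an actin-binding protein of muscle attachment sites, had 4.477 to 10640 reads (median 4122) and a log2 change of 4.35 ± 0.95 (limma adjusted p 0.0245), and was named after its values were seen. Myh3 had 0.0 to 737.7 reads (median 186.3), and Myog had 0.0 to 259.7 (median 48.95). In both, the 5 carcinomas other than that of mouse 10 exceeded every papilloma. Their log2 changes were 2.41 ± 0.48 and 1.61 ± 0.32 (SE), both with a limma adjusted p of 0.0231.

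Most muscle genes were lower in carcinoma than in skin. In SCC vs CHR, 39 of 46 genes were called, 35 lower and 4 higher in SCC, where 36.5% of all genes were called, 21.4% lower and 15.1% higher. The median log2 change of the 46 genes was -2.43, compared with -0.02 for all genes, and -1.83 without mouse 10. In 36 genes SCC was lower in 6 of 6 mice, and in 32 the groups did not overlap, which held downwards for 11.3% of all genes and upwards for 8.57%. The comparison shares its skin libraries with PAP vs CHR and its carcinomas with SCC vs PAP. All 13 fast genes, all 5 of calcium release and membrane and all 6 of metabolism were called lower, with medians of -2.79, -2.07 and -3.16 on the log2 scale, and 9 of 13 shared sarcomere genes. Over all other settings 27 to 40 genes were called, the lowest with log2(normalised reads + 1).

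The shared sarcomere genes not called were Ttn, Actn2, Des and Xirp2. Ttn was lower in 6 of 6 mice without overlap, at a log2 change of -3.27 ± 1.32 (SE, limma adjusted p 0.0599, and 0.0295 with the mouse as block). Without mouse 10 its change was -1.84 with an adjusted p of 0.0956. Actn2, which crosslinks actin at the Z disc, had 0.8953 to 1093 reads in SCC (median 580.6) and 587.8 to 1909 in CHR (median 1124), with a limma adjusted p of 0.0517. Des had 21.49 to 3764 reads in SCC (median 2889), just under its range in skin, with a log2 change of -1.49 ± 0.73 (adjusted p 0.115). Xirp2 was higher in SCC than in the skin of the same mouse in 3 of 6 mice, at 10640 compared with 7792 reads in mouse 2, 4685 compared with 4325 in mouse 8 and 7816 compared with 3986 in mouse 9.

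Members differed in the level they had in carcinoma. As a percentage of the same mouse's skin, and over the 5 mice other than mouse 10, the lowest median among the 38 genes was that of Pvalb, 7.11% (1.28% to 13.6%), followed by Atp2a1 at 9.18% (6.31% to 20.8%), Myoz1 at 10.6%, Pygm at 10.9%, Ckm at 11.3% and Car3 at 11.5%. Myoz1 tethers calcineurin at the Z disc, and Pygm is the glycogen phosphorylase of muscle. At the other end stood Myh2 and Srl at 37.2%, Mb at 38.8%, Des at 65.3%, Actn2 at 66.0% and Xirp2 at 108.0%. Ttn was in between at 29.2% (19.0% to 39.5%) and so was Acta1 at 27.1% (11.6% to 38.8%). Neighbours in this order had overlapping ranges, and so did Myh4 (12.7%, range 0.442% to 36.2%) and Myh2 (range 10.2% to 84.9%), while the ranges of Ckm (6.18% to 15.8%) and Des (32.2% to 93.1%) were apart. Car3 is also a gene of fat, and 15 of 16 adipocyte genes were called lower in SCC than in CHR, compared with 21.4% of all genes. The median over the 38 genes was 27.2%, 15.7%, 19.7%, 27.6% and 20.4% in mice 2, 3, 7, 8 and 9, and 0.109% in mouse 10.

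In levels, Pvalb had 1.791 to 295.1 reads in SCC (median 70.82), below all skin libraries, and a log2 change from CHR of -3.65 ± 0.51 (SE, limma adjusted p 4.37e-05). Myh4 had 1.791 to 5642 (median 868.1) and overlapped with skin only through the skin of mouse 7 (3341 reads), with a log2 change of -4.75 ± 1.06 (adjusted p 0.00222). Ckm had 0.0 to 2160 (median 1138) and Atp2a1 1.791 to 2562 (median 983.7), both under every skin library. Their log2 changes were -4.01 ± 0.83 and -3.93 ± 0.77, with limma adjusted p of 0.00124 and 0.000815. The fast troponins Tnnt3, Tnni2 and Tnnc2 had medians of 1446, 930.9 and 703.0 reads in SCC and were also below skin in 6 of 6 mice, with limma adjusted p of 0.00357, 0.000694 and 0.00254. Ryr1 had 103.0 to 2632 (median 1742) and Mb 27.76 to 811.5 (median 333.9). Both were called lower than in CHR, with limma adjusted p of 0.00468 and 0.0016, Ryr1 without overlap and Mb with it. Myh1 and Myh2 were called at adjusted p of 0.0283 and 0.022, but not without mouse 3 (0.0833 and 0.0819) nor without mouse 7 (0.0695 and 0.0539), and Myh1 not without mouse 9 (0.0578).

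**Figure D3:**
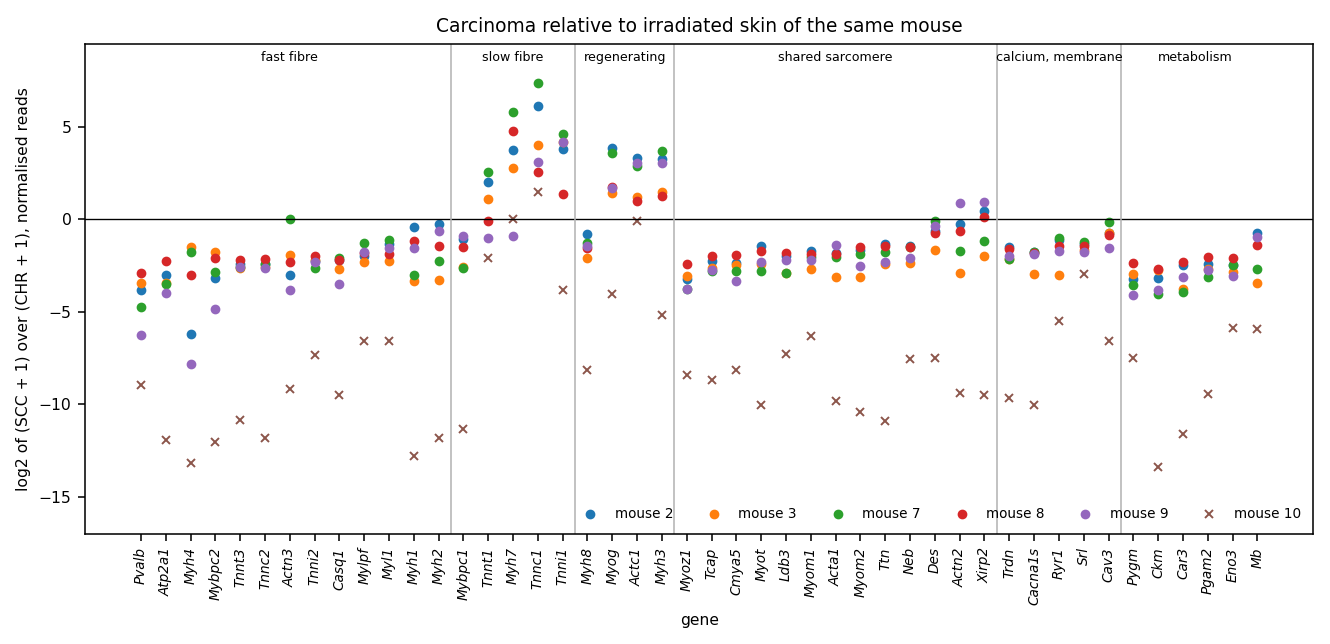
Log2 of carcinoma over the skin of the same mouse, (SCC + 1)/(CHR + 1) in normalised reads, for each of the 46 genes ordered within roles by their median without mouse 10. Points are the 6 mice and the cross is mouse 10. Fast, calcium and metabolic genes lie below or at 0, while Tnnc1, Tnni1, Actc1, Myh3 and Myog lie above 0 in the other 5 mice.

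A few slow and regenerating genes were higher in carcinoma than in skin. The 4 genes called higher in SCC than in CHR were Tnnc1, Tnni1, Myh7 and Actc1. Tnnc1 (chromosome 14, 31208312 to 31211729) had 0.0 to 4.567 reads in CHR (median 1.521) and 4.477 to 164.8 in SCC (median 41.25). Its groups met only through the carcinoma of mouse 10 and the skin of mouse 8, and it was higher in 6 of 6 mice. The log2 change was 1.24 ± 0.24 (SE, limma adjusted p 0.000834), and it was called in every other setting and without each mouse. Tnni1 (chromosome 1, 135779434 to 135810989) had 1.737 to 25.91 reads in CHR (median 10.6) and 0.8953 to 281.5 in SCC (median 51.68). Actc1 had 1.92 to 12.49 (median 5.215) and 1.791 to 85.12 (median 29.69). Myh7 had 0.0 to 1.041 (median 0.8908) and 0.0 to 55.65 (median 19.55), with 0 in the carcinomas of mice 9 and 10. In all of these the carcinoma of mouse 7 was the highest, and the groups overlapped. The log2 changes were 1.06 ± 0.33, 0.65 ± 0.21 and 0.7 ± 0.26 (SE), with limma adjusted p of 0.0188, 0.0226 and 0.0452. These 3 calls were lost in limma-voom without the block (0.128, 0.0669 and 0.126) and without mouse 2 (0.0702, 0.0813 and 0.0748) or mouse 7 (0.0643, 0.0655 and 0.174), and Tnni1 and Myh7 also without mouse 3 (0.0657 and 0.0986), Tnni1 and Actc1 without mouse 9 (0.0651 and 0.0803) and Myh7 without mouse 8 (0.145). Tnnc1, Actc1 and Myh7 overlap a gene on the opposite strand, and whether the counting used strand is not given in the sources used here.

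Myh3 and Myog were higher in carcinoma than in the skin of the same mouse in 5 of 6 mice, the exception being mouse 10, and were not called. Their log2 changes were 1.18 ± 0.48 and 0.78 ± 0.32 (SE), with limma adjusted p of 0.0625 and 0.0616. Without mouse 10 the changes were 1.67 and 1.11, with adjusted p of 0.0016 and 0.00303. In mouse 7, Myh3 had 55.8 reads in skin and 737.7 in SCC, and Myog 20.9 and 259.7. Myh8, the neonatal heavy chain, differed from both in being called lower in SCC, at a median of 220.8 reads compared with 713.9 and a log2 change of -1.62 ± 0.41 (adjusted p 0.00528). Since 5.69% of its 76-base stretches recur in other heavy chain genes, most often in Myh2, part of its reads may be theirs, which was not tested. Tnnt1 had 10.2 to 159.3 reads in SCC (median 38.22) and a log2 change from CHR of 0.27 ± 0.26 (adjusted p 0.443). Mybpc1 was called lower in SCC, with a log2 change of -2.51 ± 0.74 (adjusted p 0.0132).

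Ratios within a library set 1 muscle gene against another. Where the first gene has no reads, the ratio follows the level of the second gene against the added count of 1 read, and so the amount of muscle. Each of 9 ratios was compared within mice in 3 comparisons by a two-sided exact permutation test over sign flips of the 6 within-mouse differences, which with 6 mice cannot give a p below 0.0312. The ratio of slow to fast gene was higher in SCC than in CHR in 6 of 6 mice for Tnnc1 to Tnnc2, with a mean log2 difference of 8.11 ± 3.15 (SD over 6 mice), for Tnni1 to Tnni2 by 5.49 ± 1.65 and for Tnnt1 to Tnnt3 by 4.30 ± 2.56. Without mouse 10 these differences were 7.07 ± 2.06, 5.89 ± 1.48 and 3.41 ± 1.53. The ratio of Myh3 to Myh4 was higher by 6.83 ± 3.10 and that of Actc1 to Acta1 by 5.25 ± 2.35, also in 6 of 6 mice. In mouse 10 the carcinoma had 0 reads of Myh3, so that its ratio there follows Myh4, and without it the differences were 6.60 ± 3.40 and 4.35 ± 0.87. All 5 pairs had an exact p of 0.0312, the smallest possible, and an adjusted p over 27 tests of 0.0703, which fails the threshold. An unpaired exact permutation test of the same values gave adjusted p of 0.00649 to 0.0106. It ignores that the libraries are paired by mouse, and so does not replace the paired result. The ratio of Myh7 to Myh4 differed by 8.27 ± 3.02, but Myh7 had at most 1.041 reads in skin and 0 in the carcinomas of mice 9 and 10, where the difference is set by Myh4, and nothing is read from it. The ratios of Myh8, Myh2 and Myh1 to Myh4 were higher by 3.02 ± 2.93, 2.28 ± 3.56 and 1.86 ± 3.48 in 5, 4 and 4 of 6 mice, within the spread between mice (exact p 0.0938, 0.25 and 0.312, adjusted p 0.181, 0.321 and 0.384). In the carcinomas other than that of mouse 10 the log2 ratio was -4.89 to -2.19 for Tnnc1 to Tnnc2 and -4.72 to -1.57 for Tnni1 to Tnni2, below 0, while in mouse 10 the ratio of Tnnc1 to Tnnc2 was 2.45, from 4.48 reads against 0. Many of these values rest on a few reads and follow the added count of 1 read, in papilloma, in the carcinoma of mouse 10 and in skin, where Tnnc1 was at 0 in mice 2 and 7. A pseudocount of 10 reads gave 5.60 for Tnnc1 to Tnnc2 and 4.85 for Tnni1 to Tnni2.

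**Figure D4:**
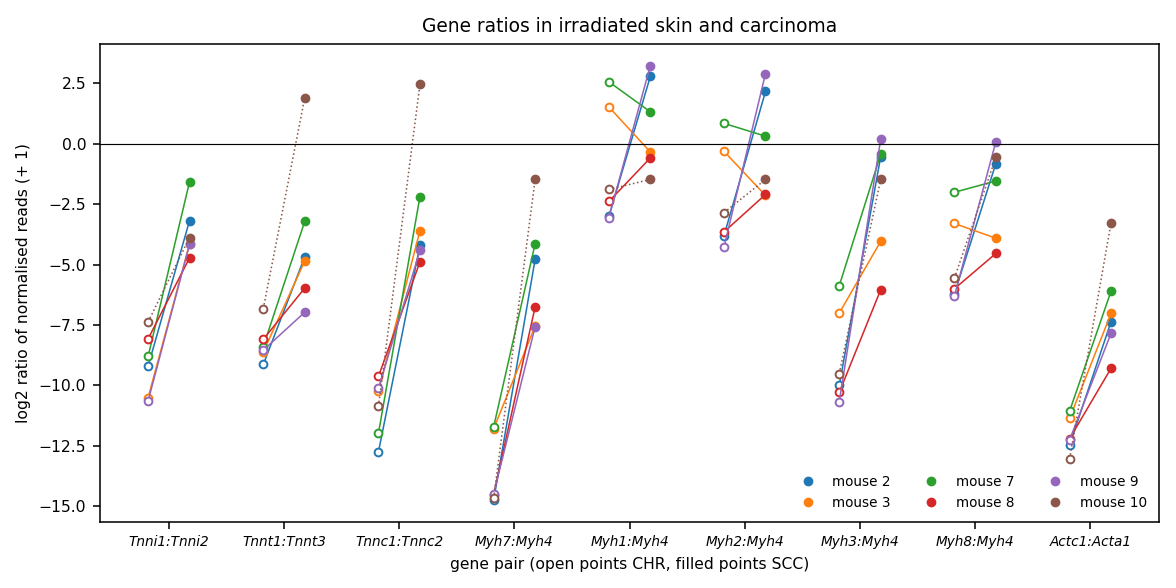
Log2 ratio of normalised reads (each + 1) of 9 gene pairs in skin (open points) and carcinoma (filled points) of each of the 6 mice, with mouse 10 as a dotted line. The ratio is higher in SCC in 6 of 6 mice for 6 pairs, for example by 5.49 for Tnni1 to Tnni2 (for Myh7 to Myh4 it is set by Myh4 in mice 9 and 10), and goes either way for Myh1, Myh2 and Myh8 to Myh4.

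The mix of heavy chains in the 5 carcinomas with 4094 to 12895 heavy chain reads, those of mice 2, 3, 7, 8 and 9, differed between mice. Per kb, Myh4 made up 8.15% in mouse 2, compared with 84.3% in the skin of that mouse, and 5.6% in mouse 9, compared with 85.9%. In mouse 8 it was 53.6% compared with 79.6%. In mice 3 and 7, whose skin was low in Myh4, it was 49.1% and 18.6%, higher than in skin. Myh3 made up 0.802% to 13.7% in these carcinomas and 0.0502% to 0.201% in the 6 skin libraries, so the ranges were apart. Myh8 made up 1.17% to 3.26% compared with 0.554% to 1.53%, which overlapped. The exon length used was 11772 bases for Myh8 and 6057 for Myh3, so that equal reads give Myh8 the smaller share. The papillomas other than that of mouse 2 had 4 to 53 heavy chain reads and the carcinoma of mouse 10 had 3, too few for a composition.

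**Figure D5:**
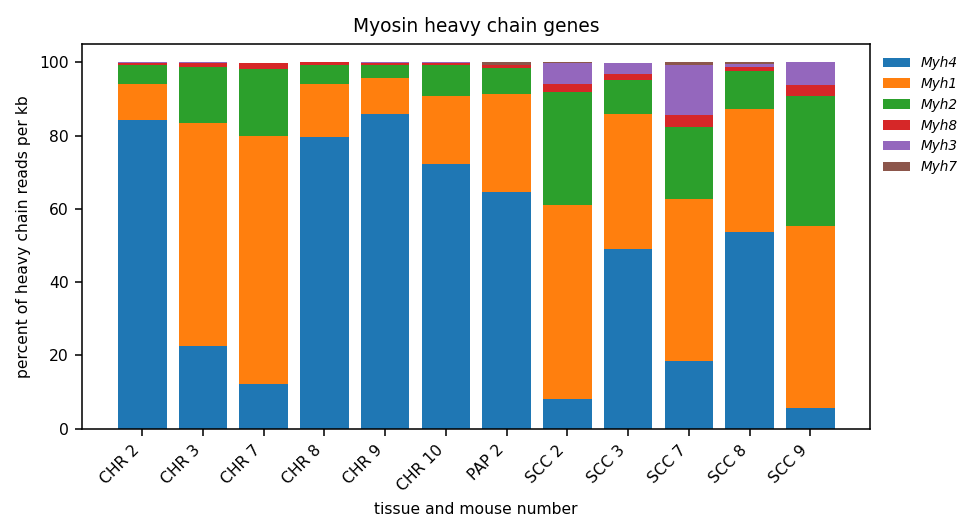
Share of each of 6 myosin heavy chain genes in their summed reads per kb of exon (percent), for the 12 libraries with at least 1000 heavy chain reads. Myh4 dominates the skin of mice 2, 8, 9 and 10 (72.2% to 85.9%), Myh1 that of mice 3 and 7, and embryonic Myh3 is visible in carcinomas (up to 13.7% in mouse 7).

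The further muscle genes were also compared with carcinoma. Of the 71 further muscle genes, 43 were called higher in SCC than in PAP and 0 lower in limma, where the unadjusted p was under 0.05 for 56. Of all genes, 4.99% were called higher and 0.592% lower in that comparison. Against skin 46 were called lower and 4 higher, where 21.4% of all genes were called lower and 15.1% higher. The 4 were Tnnt2, Myl4, Chrng and Tmem8c, genes of developing muscle, of which Tnnt2 and Myl4 also serve the heart. Tmem8c, which encodes the fusion protein myomaker, had 0 reads in all 12 CHR and PAP libraries and up to 43.65 in SCC (median 9.993), with 0 in mouse 10 alone. Chrng, the fetal subunit of the acetylcholine receptor, had at most 0.8683 reads in CHR, 0 in PAP and up to 55.65 in SCC (median 7.674), again with 0 in mouse 10. Myl4, the embryonic and atrial light chain, had 19.2 to 33.79 reads in CHR and 14.33 to 572.9 in SCC (median 146.2). The carcinoma of mouse 7 was the highest in all of these. The log2 changes of Tmem8c, Chrng and Myl4 were 0.77 ± 0.17, 0.69 ± 0.17 and 1.38 ± 0.33 (SE), with limma adjusted p of 0.00177, 0.00515 and 0.00347. Those of the first 2 genes, against libraries at 0, depend on the transformation and are no bounds. Myf6 was called lower in SCC than in CHR, with a log2 change of -0.68 ± 0.2 (adjusted p 0.0117). Ankrd1 and Csrp3, stress-responsive muscle genes named after their values were seen, had medians of 731.7 and 407.3 reads in SCC compared with 117.9 and 315.8 in CHR, with limma adjusted p of 0.0549 and 0.999.

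In SCC vs PAP, where 4.99% of all genes were called higher and 0.592% lower, the other cell type lists moved as well. Called higher were 4 of 11 smooth muscle, 3 of 12 fibroblast, 5 of 8 macrophage and 2 of 16 adipocyte genes. Called lower were 4 of 12 keratinocyte genes, and 0 of 7 nerve genes were called in limma (unadjusted p under 0.05 for 3). The carcinoma of mouse 10, lowest in muscle, was also the lowest carcinoma in fibroblast (0.124% of reads, others 0.764% to 2.83%), macrophage (0.0333%), adipocyte (0.0464%) and smooth muscle genes (0.0279%), and the highest in keratinocyte genes (4.77%). The carcinoma of mouse 7, highest in Myh3 and Myog, was the highest in macrophage genes (0.402% of reads) and the lowest in keratinocyte genes (1.47%). The part of these cell types in the muscle values was not tested.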

How the data were processed

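RNA from 6 mice in 3 tissues (CHR, PAP, SCC) gave 18 libraries, grouped and numbered by the sample titles. The authors aligned reads to mm10 (GRCm38) with MOSAIK, counted them with HTSeq, scaled the counts and applied a variance-stabilizing transformation. The deposited values are a score on the linear scale of that transformation, in which 0 reads appear as 39. Versions and strandedness are not given in the sources used here. The methods also name a batch scaling, yet low values in every library stepped by whole reads.

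The transformation was inverted (zero level 39.13, size factors 0.834 to 1.18), and 99% of values returned the deposited value exactly. On simulated data the largest error of a recovered size factor was 0.065%. The table has 14542 entries, of which 21 with a bare number for a name (at most 0.236% of a library's total) were left out. The 153 library pairs had 2.24% identical values at most, so none was counted as a copy.

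Tests were two-sided, with limma 3.58.1 (R 4.3.3) on log2(value + 1), 1 coefficient per group and no further term, fitted to all 18 libraries, and adjusted by Benjamini-Hochberg over 14521 genes. Tested on simulated data with 200 changed genes for PAP vs CHR, this recovered 42% of genes changed 2-fold and 98% of those changed 4-fold, with 4.76% false calls. The simulation gave all genes the same dispersion, changed only genes of higher mean level, and had equal library sizes and no mouse effect. Its rates therefore do not cover genes of few reads or groups in which a library stands apart. Alternatives were the mouse as block, limma-voom with TMM on recovered reads, other pseudocounts and scalings, a minimum mean of 10 reads, only the 2 groups compared, and leaving out each mouse. The same number marks the same mouse, so the samples are paired by design, although deviations from the group means correlated at only -0.245 to 0.507 within mice. Ratios used log2 of normalised reads + 1 and a sign-flip test in Python (scipy 1.17.1, numpy 2.4.6, pandas 2.3.3). Coordinates and exon lengths are those of GENCODE M21, and 25 of the 46 genes overlap a gene on the opposite strand. Values were given by a rule for 24 genes, namely both genes of each ratio, a set of reference genes, the extremes of each comparison and the genes not called in PAP vs CHR, and other genes by role. Of the further muscle genes, 1 that the rule would name is not reported here. The members and lists were chosen with earlier results of these data known. Intervals and test errors cover the spread between mice only.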

Additional observations from a re-analysis of the deposited data

Results flagged for a closer look

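Single libraries stood apart from the other 5 of their group in 35 of the 72 groups examined, which were the 3 tissues for each of 24 genes. The gap to the nearest library was more than 0.625 of the range of the group on the log2(value + 1) scale. Chance alone sets a library apart in about 1 in 20 groups. The genes are not independent, since they share libraries.

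The papilloma of mouse 2 stood apart by this gap as the highest in 16 genes, in normalised reads Acta1 at 1848, Atp2a1 at 669.6, Car3 at 572.9, Ckm at 778.3, Des at 440.5, Mb at 139.2, Myh1 at 630.6, Myh2 at 185.9, Myh4 at 1433, Myh7 at 22.07, Myh8 at 31.4, Pvalb at 159.6, Tnnc1 at 21.22, Tnnc2 at 311.5, Tnnt3 at 611.1 and Ttn at 20850. The carcinoma of mouse 10 stood apart as the lowest in 14 genes, namely Acta1 at 25.96, Atp2a1 at 1.791, Car3 at 1.791, Ckm at 0.0, Des at 21.49, Myh1 at 0.0, Myh2 at 0.0, Myh8 at 0.8953, Neb at 145.0, Ryr1 at 103.0, Tnnc2 at 0.0, Tnni2 at 26.86, Tnnt3 at 3.581 and Ttn at 166.5. Both libraries were also the extreme of their group in further genes, by a smaller gap. In irradiated skin, mouse 2 stood apart as the highest for Tnnc2 at 6820, Tnni2 at 6926 and Tnnt3 at 13700, while mouse 10 did so as the highest for Tnnt1 at 72.94 and the lowest for Car3 at 8767.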

How the results depend on the processing

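Of the 3 counts of called muscle genes, PAP vs CHR stayed at 38 to 42 and SCC vs CHR at 27 to 40 over all settings, while SCC vs PAP (42) was 0 in limma-voom without the block (unadjusted p under 0.05 for 27) and 0 in limma with only the 2 groups in the fit (for 45). Without 1 mouse it ranged from 0 to 44. In both of these settings and without mouse 3, 7 or 8, limma and limma-voom made 0 calls over the whole table, where the unadjusted p was under 0.05 for 2056 to 3082 genes. With the mouse as replicate block the counts were 41, 44 and 40. The block ended the call of Tnnt1 in PAP vs CHR and added Pvalb (and Srl, not among the 24 genes given with values) in SCC vs PAP and Ttn in SCC vs CHR, and changed no other call among the 24. The change of Myh7 in PAP vs CHR reversed from 0.07 to -0.07 without mouse 2, and was 0.14 at most without 1 mouse, and none of these was called. With no replicate block, that is in the unpaired exact permutation test, the ratios of 6 pairs in SCC vs CHR that miss the threshold when paired passed it, at 5.49 for Tnni1 to Tnni2, 4.3 for Tnnt1 to Tnnt3, 8.11 for Tnnc1 to Tnnc2, 8.27 for Myh7 to Myh4, 6.83 for Myh3 to Myh4 and 5.25 for Actc1 to Acta1, because 6 pairs allow no p below 0.0312. With 5 mice the smallest p is 0.0625. Among the other values of the 24 genes, 942 kept direction and call, 194 kept direction and lost the call, 15 gained one and 1 reversed, and most of the losses were in SCC vs PAP. Depth limits Myh7, Tnnc1, Actc1 and Myog in skin and those of the genes that had a few reads in papilloma.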
